A study of Homo sapiens with 18 samples.

Results

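Tight junction genes were followed in MCF10A cells, an immortalised breast epithelial cell line that does not form tumours. The 9 genes were CLDN1, CLDN4, CLDN7, CLDN12, OCLN, MARVELD2, TJP1, TJP3 and F11R, read out by symbol from a count table of 60662 genes, and all 9 passed the filter on low counts. Cells sat sparsely on soft polyacrylamide gels coated with Matrigel, a basement membrane extract. After 1 h of plating they received growth medium containing 2% Matrigel, which sets around them (3D), or plain growth medium (2D). Poly-A RNA was sequenced at timepoints 1, 2 and 3 of each culture, which gives 6 groups (3D timepoints 1, 2 and 3, and 2D timepoints 1, 2 and 3) of 3 libraries. All groups were the same line with no genetic change, in the same horse serum, EGF, insulin, cholera toxin and hydrocortisone medium. The protocol lists harvests at 3, 12 and 21 h after plating, and the timepoints are tied to these hours by order alone. The sample descriptions give each replicate number a date of its own, but nothing says what was done on it or whether libraries of a group came from separate cultures, so a p-value here measures the spread among these libraries.

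Tight junctions seal the space between neighbouring epithelial cells at the top of their sides and keep apical and basolateral membrane apart. Claudins form the strands of the seal and set which ions pass. Occludin and tricellulin are MARVEL-domain proteins of the strands and of the corners where cells meet, JAM-A is an immunoglobulin-type adhesion protein, and the zonula occludens scaffolds tie all of them to actin. Cells plated sparsely, as here, have few neighbours at first.

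The library totals in the file headers were 9.31 M to 17.7 M over the 17 libraries that carry one. Summed gene counts were 4.73 to 5.73 times these totals. Counts and CPM (counts per M, scaled between libraries by the TMM method) are therefore tested here within a gene only. Marker sums and counts of different genes set side by side are rough levels. One library, 2D timepoint 3 replicate 1, has only the raw count table named in its labels and was left out of the tests, which leaves n = 2 in that group. Of the 278 genes called between 3D and 2D at timepoint 3 without it, it lay nearer to the 3D mean for 260, or 93.5%, against 63.0% of all 18110 genes compared. It was nearer to 3D for 6 of the 9 tight junction genes. With it in the fit no tight junction gene was called at timepoint 3, as given below. The label of an epithelial line held in the data: all 9 epithelial markers, KRT5, KRT14, KRT17, KRT8, KRT18, CDH1, EPCAM, SFN and TP63, had counts in every group, with a summed level of 4175 to 14950 CPM per library. Of other cell types, the 4 leukocyte markers summed to 5.56 to 19.5 CPM, with CD3E at 0 in all 18 libraries. The 4 endothelial markers summed to 1.43 to 7.0 CPM, and the 6 fibroblast markers to 117.5 to 291 CPM, with COL3A1 at 0 in all 18. Other markers of these lists were not at 0. The largest counts of the fibroblast list were those of DCN, 7252 to 22868 per library. Those of the leukocyte list were of CD14, 397 to 1486 per library.

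Between cultures, the 9 tight junction genes were called only at the later timepoints, and always downward in 3D. The 9 were chosen with earlier results of these data known. The shares of all genes beside their counts therefore give scale and do not test tight junction genes as a family. At timepoint 2, 6 of the 9 were lower in 3D than in 2D (edgeR quasi-likelihood test, Benjamini-Hochberg adjusted p under 0.05), where 0.785% of all 18592 tested genes were called lower. They were the barrier claudins CLDN1, CLDN4 and CLDN7, the MARVEL proteins OCLN and MARVELD2, and the scaffold TJP3. At timepoint 3, 5 of the 9 were lower, namely CLDN1, CLDN4, CLDN7, OCLN and TJP3, against 1.26% of all genes. None was called higher at either timepoint. The median log2 fold change of the 9, 3D minus 2D, was -0.83 at timepoint 2 and -1.45 at timepoint 3, beside -0.03 and 0.02 over all tested genes. Among the libraries tested, CPM did not overlap between cultures, with 3D lower, for 9 of 9 at timepoint 2. At timepoint 3 this held for 8 of 9. The shares of all genes were 13% and 20.2%.

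**Figure D1:**
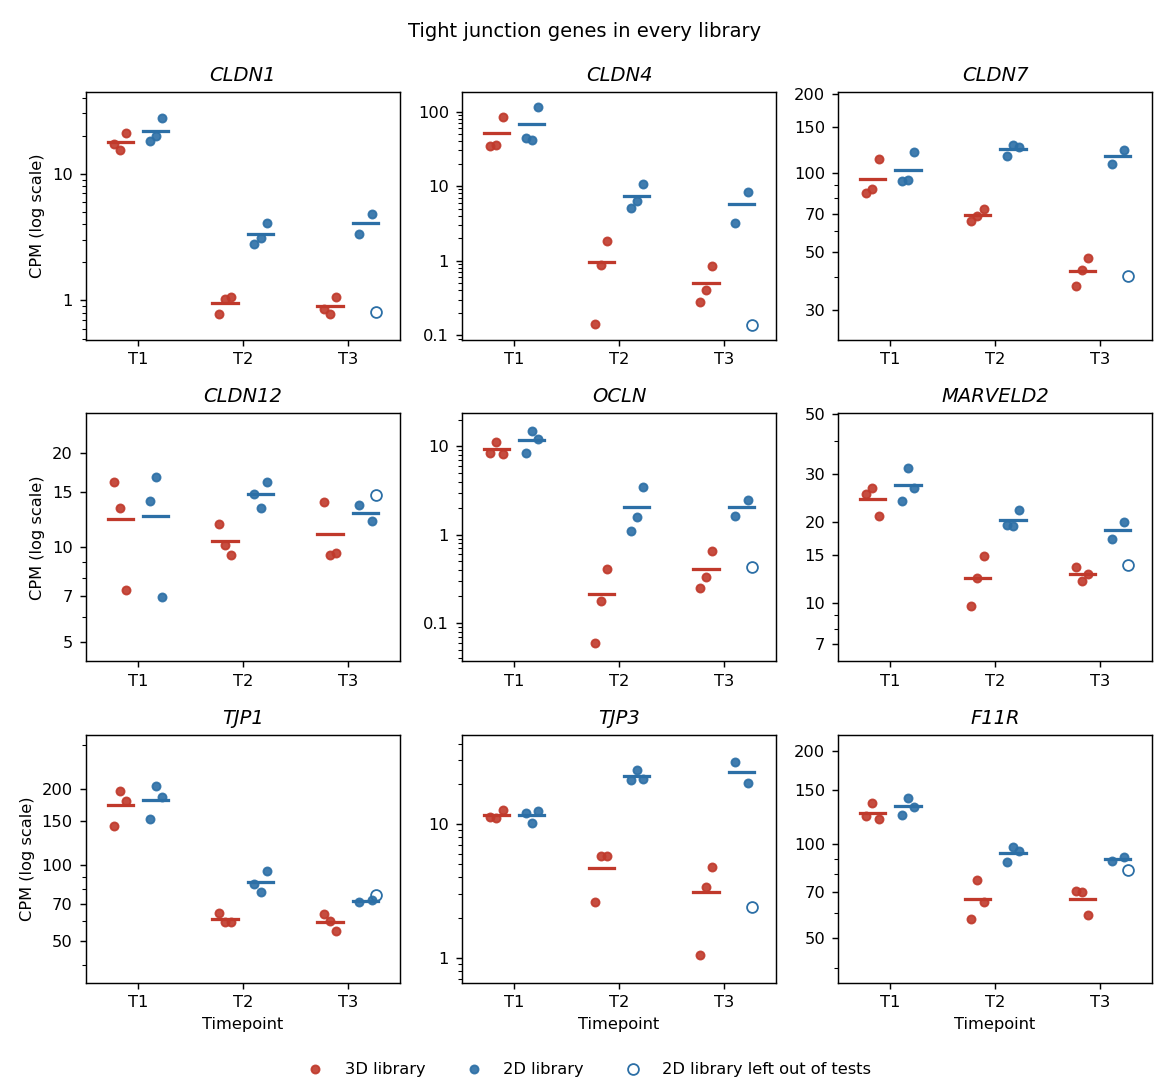
CPM of each tight junction gene in every library on a log axis, 3D (red) left of 2D (blue) at timepoints 1, 2 and 3; bars are the means of the libraries tested and the open circle is the 2D timepoint 3 library left out of the tests. The cultures lie together at timepoint 1, and the 3D points lie below the 2D points at timepoint 2 in all 9 panels.

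At timepoint 1 no tight junction gene was called (edgeR, adjusted p = 1.00 for each of the 9), none had an unadjusted p under 0.05, DESeq2 called 0, and 0% of all genes were called. Log2 differences ran from -0.39 for CLDN4 to 0.01 for TJP3.

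CLDN1 (chr3:190305707-190322446 in hg38, minus strand) encodes claudin-1, a sealing claudin needed for the skin barrier. At timepoint 1 its level in replicates 1, 2 and 3 was 17.3, 15.3 and 21.0 CPM in 3D, against 18.2, 19.9 and 27.7 CPM in 2D. Timepoint 2 gave 0.783, 1.03 and 1.06 CPM in 3D, against 2.79, 3.09 and 4.09 CPM in 2D. Timepoint 3 gave 0.849, 0.782 and 1.07 CPM in 3D and 3.35 and 4.78 CPM in the 2D replicates tested, while the 2D library left out held 0.806 CPM. All later libraries thus lay far under all early ones in both cultures, and the 3D libraries lay under the tested 2D ones at both later timepoints. The log2 difference between 3D and 2D was -1.80 ± 0.24 (SE) at timepoint 2 and -2.17 ± 0.26 at timepoint 3 (edgeR adjusted p = 0.0105 and 0.00047).

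CLDN4 (chr7:73828174-73832683 in hg38, plus strand) encodes claudin-4, a sealing claudin abundant in glandular and simple epithelia. In 3D it stood at 34.6, 35 and 83.7 CPM at timepoint 1, and in 2D at 44.7, 41.8 and 114 CPM. At timepoint 2 the 3D libraries held 0.142, 0.878 and 1.83 CPM, from 12, 45 and 116 counts, against 5.02, 6.27 and 10.7 CPM in 2D. At timepoint 3 the values were 0.278, 0.399 and 0.836 CPM in 3D, 3.21 and 8.42 CPM in the tested 2D libraries and 0.139 CPM in the one left out. Replicate 3 was the highest library of its group in all 6 groups, and the cultures did not overlap at timepoints 2 and 3 among the libraries tested. The log2 differences, -2.97 ± 0.70 at timepoint 2 and -3.52 ± 0.77 at timepoint 3 (SE, edgeR adjusted p = 0.0460 and 0.0318), were large but had wide errors. With the replicate number as a block, which takes out what libraries of one number share, the adjusted p was 0.00016 and 0.00035. The timepoint 2 call was lost when counts were scaled by RLE (adjusted p = 0.0504) and when the groups were compared alone (0.0540), and in the authors' deposited table CLDN4 had an adjusted p of 0.0610 at timepoint 3. The timepoint 2 call was also lost with all 18 libraries (edgeR adjusted p = 0.112) and in 12 of 17 fits that each left out 1 library.

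CLDN7 (chr17:7259903-7262478 in hg38, minus strand) encodes claudin-7, found along the whole lateral membrane as well as in the junction. At timepoint 1 it was at 84.3, 86.9 and 113 CPM in 3D, against 93.0, 93.9 and 120.5 CPM in 2D. At timepoint 2 the 3D libraries held 65.7, 68.6 and 73.0 CPM and the 2D libraries 116, 127 and 126 CPM. Timepoint 3 gave 37.0, 42.6 and 47.4 CPM in 3D, against 108 and 123 CPM in the tested 2D libraries and 40.3 CPM in the library left out. CLDN7 was therefore a gene with 3 separate levels in 3D, each later library lying under all earlier ones, and with overlapping levels at all timepoints in the tested 2D libraries. The log2 difference was -0.83 ± 0.16 at timepoint 2 and -1.45 ± 0.17 at timepoint 3 (SE, edgeR adjusted p = 0.0238 and 0.00047). CLDN7 shares 2187 bases with the overlapping gene AC003688.1 on its own strand, which had a mean count of 388 where CLDN7 had 6139. On the opposite strand it shares 29 bases with ELP5, which had a mean count of 6885. Part of the CLDN7 count is therefore uncertain.

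The 250 bases before the start of the tight junction genes were searched, on both strands, for CAGGTG, the E-box form bound by the Snail and ZEB repressors, which are known to repress claudins and occludin. Entries of RefSeq (GRCh38.p14) existed for 8 of the 9, all but F11R. CLDN7, OCLN, TJP1 and TJP3 had more than 1 start site there. Only the site nearest the gene start in the count table was searched. That site lay 2822 bases from this gene start for CLDN4, 255 for OCLN and 119 for TJP3. Other start sites and bases further away were not searched. CAGGTG, or CACCTG on the other strand, was found in CLDN7 and OCLN and was not among these letters in the other 6. It occurred in 17.5% of 35116 promoters of the table, and 4 or more matches, as in CLDN7, in 43 of them or 0.122%. The stretches of 30 bases that hold the matches are shown because they set CLDN7 apart from the other windows searched. They read 5′ to 3′ on the gene's strand, with the match in capitals, and positions count back from the start site searched. The first 3 come from CLDN7 at chr17:7262635-7262664, chr17:7262596-7262625 and chr17:7262481-7262510 (minus strand, matches at -174, -135, and -20 and -9), and the last from OCLN at chr5:69492502-69492531 (plus strand, match at -33).
CLDN7 distal: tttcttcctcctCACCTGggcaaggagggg
CLDN7 middle: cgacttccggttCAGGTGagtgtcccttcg
CLDN7 start: cctacatatactCAGGTGcgcccCACCTGt
OCLN: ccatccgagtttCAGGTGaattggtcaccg
AACNNGTT, the grainyhead motif, occurred in none of the 8 windows and in 3.0% of all promoters. GGAAGT, an ETS motif, occurred in CLDN7 alone, at -145, and in 19.5% of all. A match is only a run of letters, and binding was not measured.

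CLDN12 (chr7:90403467-90415954 in hg38, plus strand) encodes claudin-12, an unusual claudin that lacks the C-terminal tail motif by which most claudins hold the scaffolds. It was the one member called in no comparison. In 3D it was at 16.2, 13.4 and 7.31 CPM at timepoint 1, 11.9, 10.2 and 9.43 CPM at timepoint 2 and 14.0, 9.49 and 9.63 CPM at timepoint 3. In 2D it was at 14.1, 16.8 and 6.93 CPM, then 14.8, 13.4 and 16.2 CPM, then 13.6 and 12.1 CPM, with 14.7 CPM in the library left out. Replicate 3 of timepoint 1 was the lowest library in each culture. The log2 difference between cultures was -0.50 ± 0.30 at timepoint 2 and -0.22 ± 0.33 at timepoint 3 (SE, edgeR adjusted p = 0.367 and 0.739), and no alternative setting called it in any of the 12 comparisons.

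OCLN (chr5:69492292-69558104 in hg38, plus strand) encodes occludin, the first integral protein found in tight junctions. At timepoint 1 it was at 8.49, 11.1 and 8.23 CPM in 3D, against 8.47, 14.8 and 12.0 CPM in 2D. At timepoint 2 the 3D libraries held 0.0593, 0.176 and 0.411 CPM, from 5, 9 and 26 counts, against 1.09, 1.6 and 3.47 CPM in 2D. Timepoint 3 gave 0.251, 0.333 and 0.655 CPM in 3D, 1.62 and 2.50 CPM in the tested 2D libraries and 0.428 CPM in the library left out. The cultures did not overlap at either later timepoint among the libraries tested. The log2 difference was -3.29 ± 0.56 at timepoint 2 and -2.31 ± 0.55 at timepoint 3 (SE, edgeR adjusted p = 0.0175 and 0.0478). The timepoint 3 value lay just inside the threshold, and the authors' deposited table gave OCLN an adjusted p of 0.0530 there. That call was lost in 13 of 17 fits that each left out 1 library. The pseudogene OCLNP1 had a mean count of 0.056.

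MARVELD2 (chr5:69415116-69444330 in hg38, plus strand) encodes tricellulin, which sits where 3 cells meet. In 3D it was at 25.3, 26.7 and 21.0 CPM at timepoint 1, 9.70, 12.3 and 14.9 CPM at timepoint 2 and 13.6, 12.0 and 12.8 CPM at timepoint 3. In 2D it was at 23.8, 31.5 and 26.6 CPM, then 19.4, 19.3 and 22.1 CPM, then 17.2 and 19.9 CPM, with 13.9 CPM in the library left out. Every later 3D library lay under every 2D library tested. The log2 difference of -0.72 ± 0.17 at timepoint 2 passed narrowly (SE, edgeR adjusted p = 0.0496) and was lost under RLE scaling (0.0527) and with the groups compared alone (0.0704). That call was also lost with all 18 libraries (edgeR adjusted p = 0.0707) and in 13 of 17 fits that each left out 1 library. At timepoint 3 the log2 difference was -0.54 ± 0.19 (adjusted p = 0.156).

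F11R (chr1:160995211-161021343 in hg38, minus strand) encodes JAM-A, the adhesion molecule that helps place polarity proteins at the junction. Its 3D levels were 123, 136 and 120.3 CPM at timepoint 1, 57.3, 76.7 and 65.2 CPM at timepoint 2 and 70.5, 70.1 and 59.2 CPM at timepoint 3. In 2D they were 124, 141 and 132 CPM, then 87.4, 97.8 and 95.3 CPM, then 88.2 and 90.9 CPM, with 82.7 CPM in the library left out. The later cultures did not overlap. The log2 differences of -0.49 ± 0.14 and -0.43 ± 0.15 at timepoints 2 and 3 missed the threshold (SE, edgeR adjusted p = 0.0713 and 0.156). At timepoint 2 the replicate block called it (adjusted p = 0.00784), as did DESeq2 (0.00585), and the authors' deposited table gave 0.0409. At timepoint 3 DESeq2 also called it (0.0431), and the block did not. F11R shares its span with the overlapping gene AL591806.3 on the same strand, which had a mean count of 1902 where F11R had 6761.

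Of the scaffolds, TJP1 (chr15:29699367-29822503 in hg38, minus strand) encodes ZO-1, which ties claudins and occludin to actin. It was at 142, 196 and 179 CPM in 3D, against 152, 205 and 186 CPM in 2D at timepoint 1. Timepoint 2 gave 64.5, 59.3 and 59.6 CPM in 3D, against 84.1, 78.0 and 94.4 CPM in 2D. At timepoint 3 the 3D libraries held 63.7, 60.2 and 54.7 CPM, the tested 2D libraries 71.3 and 72.5 CPM and the one left out 76.2 CPM. The gap between cultures was narrow beside the distance of both from timepoint 1. It came to -0.48 ± 0.15 on the log2 scale at timepoint 2 and -0.27 ± 0.17 at timepoint 3 (SE, edgeR adjusted p = 0.10 and 0.382). The replicate block called TJP1 at timepoint 2 (adjusted p = 0.0288), and so did DESeq2 (0.0254), which called 7.19% of all genes.

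TJP3 (chr19:3708503-3750810 in hg38, plus strand) encodes ZO-3, a scaffold largely restricted to epithelia. At timepoint 1 it was at 11.3, 11.1 and 12.7 CPM in 3D, against 12.1, 10.2 and 12.7 CPM in 2D. Timepoint 2 gave 2.60, 5.74 and 5.81 CPM in 3D, against 21.3, 25.5 and 21.6 CPM in 2D. Timepoint 3 gave 1.04, 3.41 and 4.79 CPM in 3D, 29.2 and 20.3 CPM in the tested 2D libraries and 2.42 CPM in the library left out. From a common level at timepoint 1, the later 3D libraries all lay lower and the later 2D libraries tested all lay higher. The log2 difference was -2.28 ± 0.40 at timepoint 2 and -3.01 ± 0.43 at timepoint 3 (SE, edgeR adjusted p = 0.0177 and 0.00219). TJP3 shares 39 bases with AC005954.1 on the opposite strand, and whether strand was used in counting is not stated in these sources.

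**Figure D2:**
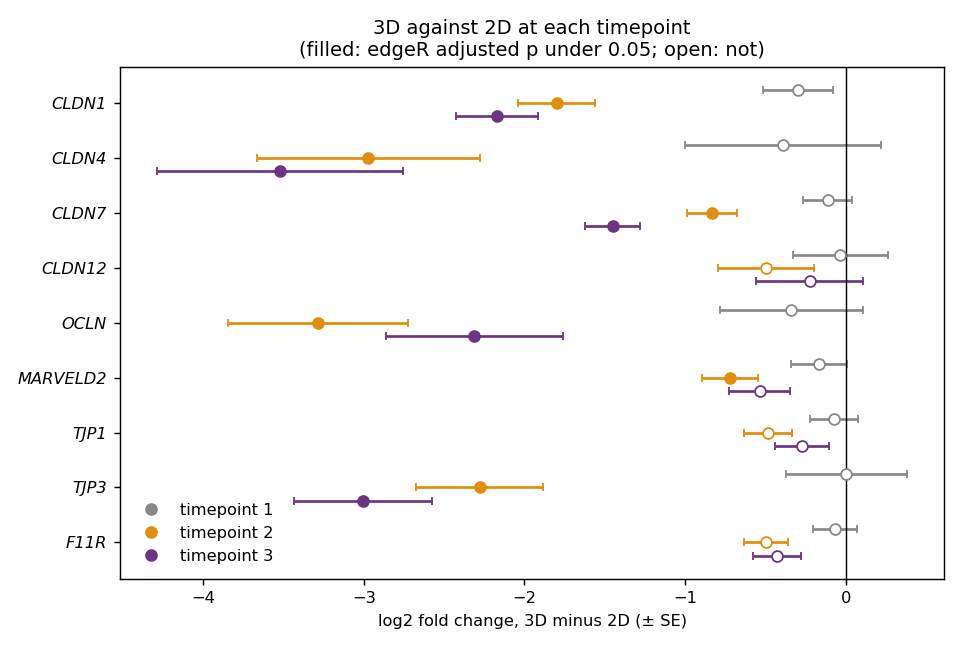
Log2 fold change, 3D minus 2D, with its standard error for each tight junction gene at timepoints 1 (grey), 2 (orange) and 3 (purple); filled points passed the edgeR threshold. Grey points lie near 0, and all orange and purple points lie below 0.

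How far these calls rest on single libraries differed between the timepoints. At timepoint 2, 6 calls became 0 without 3D replicate 1, where 0% of all genes were called in either direction, and 3 without 3D replicate 3, where 0.31% were. They became 2 without 2D replicate 1 (0.0979% of all genes), 1 without 2D replicate 2 (0.0162%) and 1 without 2D replicate 3 (0.167%). In the fit with all 17 libraries 1.49% of all genes were called in either direction, so calls over all genes dropped in these fits too. One call (OCLN) was left with all 18 libraries, where 0.453% of all genes were called. With the replicate block there were 8, adding TJP1 and F11R, where that fit called 6.86% of all genes lower. At timepoint 3, 5 calls became 3, namely CLDN1, CLDN7 and TJP3, without any one of the 5 libraries of that timepoint, where 0.18 to 1.7% of all genes were called in either direction against 1.5% with all 17, and the block called 5, where it called 5.3% of all genes lower. With all 18 libraries in the fit, 0 were called at timepoint 3, as were 0% of all genes. The log2 differences were then -1.72 for CLDN1, -2.95 for CLDN4, -1.10 for CLDN7, -1.86 for OCLN and -2.49 for TJP3 (edgeR adjusted p between 0.284 and 0.400). Libraries differed in other ways at timepoint 2: mitochondrial genes made up 0.364 to 0.482% of 3D counts and 0.908 to 1.18% of 2D counts, the 10 largest genes 11.1 to 13.1% of 3D counts and 8.41 to 9.76% of 2D counts, and counts were 5.54 to 5.73 times the header totals in 3D and 4.96 to 5.26 times in 2D. The part of these in the results was not tested. In such bulk libraries, fewer cells with a transcript and less of it per cell cannot be told apart.

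Over time, most of the 9 tight junction genes fell in both cultures. In 3D, 7 of 9 were lower at timepoint 2 than at timepoint 1, where 7.76% of all genes were called lower (edgeR adjusted p under 0.05). At timepoint 3, 8 of 9 were lower than at timepoint 1, all but CLDN12, where 6.95% of all genes were. In 2D, 5 of 9 were lower at timepoint 2 and at timepoint 3 than at timepoint 1, namely CLDN1, CLDN4, OCLN, TJP1 and F11R, against 3.22% and 2.36% of all genes. The 3D and 2D comparisons of timepoints 2 and 3 each share the timepoint 1 libraries of their culture. The median log2 change of the 9 was -1.31 at timepoint 2 and -1.54 at timepoint 3 in 3D, and -0.50 and -0.57 in 2D. Further tight junction genes were more mixed. At timepoint 3 against timepoint 1 in 2D, 11 of 24 tested plaque and polarity genes lay below 0, and 2 were called lower. Of 8 tested membrane genes 3 lay below 0 with 0 called, and of 6 tested claudins 4 did with 2 called lower. In 3D these counts were 17 and 5, 5 and 1, and 3 and 3.

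The steepest falls were in CLDN4, OCLN and CLDN1. Log2 changes of CLDN4 were -5.77 ± 0.77 at timepoint 2 and -6.65 ± 0.81 at timepoint 3 in 3D, and -3.19 ± 0.66 and -3.52 ± 0.80 in 2D (SE, edgeR adjusted p = 0.00016, 6.2e-05, 0.00806 and 0.0180). Those of OCLN were -5.46 ± 0.58 and -4.48 ± 0.54 in 3D and -2.51 ± 0.48 and -2.51 ± 0.56 in 2D (adjusted p = 2.0e-05, 5.8e-05, 0.00457 and 0.0165). CLDN1 changed by -4.22 ± 0.26 and -4.30 ± 0.26 in 3D and by -2.72 ± 0.23 and -2.43 ± 0.27 in 2D (adjusted p = 8.8e-08, 4.8e-08, 5.0e-06 and 8.6e-05). For these 3 genes all later libraries of a culture lay under its timepoint 1 libraries. TJP1 changed by -1.5 ± 0.15 and -1.54 ± 0.15 in 3D and by -1.09 ± 0.15 and -1.34 ± 0.18 in 2D (adjusted p = 1.4e-05, 9.5e-06, 0.00051 and 0.00034), the closest match between cultures among the genes called in both. F11R changed by -0.93 ± 0.14 and -0.92 ± 0.14 in 3D (adjusted p = 0.00041 and 0.00036) and by -0.50 ± 0.14 and -0.57 ± 0.16 in 2D, where the calls were close to the threshold (adjusted p = 0.0387 and 0.0463). In 2D header-total scaling ended both F11R calls (adjusted p = 0.125 and 0.106). Of 17 fits that each left out 1 library, 10 lost the F11R call at timepoint 2 in 2D and 13 that at timepoint 3. MARVELD2 changed by -0.98 ± 0.17 and -0.93 ± 0.17 in 3D (adjusted p = 0.00161 and 0.00244). Its 2D changes of -0.43 ± 0.17 and -0.56 ± 0.19 were not called (0.176 and 0.121), although the block called the second (0.0498), where it called 5.13% of all genes lower.

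CLDN7 and TJP3 took another course. TJP3 fell in 3D, by log2 changes of -1.31 ± 0.39 at timepoint 2 and -1.92 ± 0.39 at timepoint 3 (SE, edgeR adjusted p = 0.0328 and 0.00469), while its 2D change was 0.97 ± 0.38 and 1.09 ± 0.41, which did not pass (0.165 and 0.157), with all tested later 2D libraries above the timepoint 1 libraries. The 2D change of TJP3 passed at both timepoints with no filter on low counts (adjusted p = 0.00219 and 0.00203), with the groups compared alone (0.0126 and 0.0425) and without 3D timepoint 3 replicate 1 (0.0386 and 0.0383). Its 3D calls were lost with all 18 libraries (adjusted p = 0.156 and 0.0548), and the timepoint 2 one also without 3D timepoint 1 replicate 1, 2 or 3 or 3D timepoint 2 replicate 1 or 3 (adjusted p between 0.0522 and 0.111). CLDN7 was lower in 3D at timepoint 3, by -1.16 ± 0.16 (adjusted p = 0.00015). Its change of -0.46 ± 0.16 at timepoint 2 was not called (0.0580), although it was with the block (0.00462), which called 13.6% of all genes lower, and with DESeq2 (0.0308), header-total scaling (0.0111) and the stricter filter (0.0301). In 2D its changes were 0.26 ± 0.16 and 0.17 ± 0.17 (0.404 and 0.634), the second turning to -0.18 with all 18 libraries. CLDN12 changed by -0.23 ± 0.30 and -0.16 ± 0.30 in 3D and by 0.24 ± 0.30 and 0.03 ± 0.33 in 2D (adjusted p between 0.664 and 0.974). In 2D the count of 5 became 3 at timepoint 2 without 2D timepoint 2 replicate 1, and at timepoint 3 it became 2 without either tested 2D timepoint 3 library and 3 without 2D timepoint 1 replicate 2, in fits that called 1.01 to 3.36% of all genes against 5.87% and 4.86% at timepoints 2 and 3 with all 17.

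**Figure D3:**
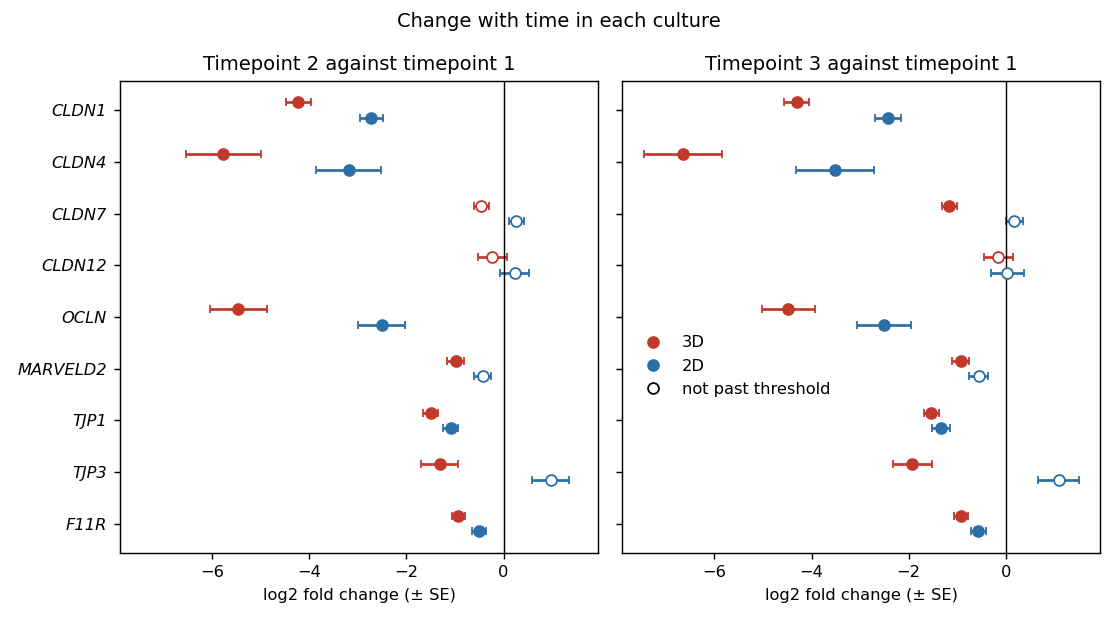
Log2 fold change with its standard error of each tight junction gene at timepoint 2 (left panel) and timepoint 3 (right panel) against timepoint 1, in 3D (red) and 2D (blue); open points did not pass the edgeR threshold. TJP3 and CLDN7 lie below 0 in 3D and above 0 in 2D, and the other genes except CLDN12 lie below 0 in both.

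Timepoint 3 was then set against timepoint 2. edgeR called 0 of 9 in 3D and 0 of 9 in 2D, as it called 0% of all genes in each. In 3D 1 member, CLDN7, had an unadjusted p under 0.05, with a log2 change of -0.71 ± 0.16 (SE, adjusted p = 0.482), and DESeq2 called CLDN7, where it called 0.156% of all genes. In 2D 0 had an unadjusted p under 0.05 and DESeq2 called 0, with 0.129% of all genes called.

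The interaction of culture and time asks whether a gene's change from timepoint 1 differed between 3D and 2D. At timepoint 3 it was called for 3 of 9, all more negative in 3D, where 0.177% of all genes were called in that direction. It was -3.01 ± 0.57 for TJP3, -1.88 ± 0.34 for CLDN1 and -1.34 ± 0.23 for CLDN7 on the log2 scale (SE, edgeR adjusted p = 0.0443, 0.0320 and 0.0267). With the replicate block 4 were called, adding CLDN4 (-3.13 ± 0.97 without the block, adjusted p = 0.372, and 0.0115 with it), where the block called 1.02% of all genes. At timepoint 2 edgeR called 0 of 9 and 0% of all genes, although 7 of 9 had an unadjusted p under 0.05. There the block called 5, namely CLDN1, CLDN4, CLDN7, OCLN and TJP3, against 0.532% of all genes, and DESeq2 called 3 against 0.221%. Between timepoints 3 and 2 edgeR called 0 of 9 and 0% of all genes, 1 of 9 had an unadjusted p under 0.05 (CLDN7, -0.62 ± 0.23), and DESeq2 called 0, with 0.0323% of all genes called.

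The timepoint 3 interaction calls did not hold in every fit. They became 0 with all 18 libraries (log2 values of -2.49 for TJP3, -1.42 for CLDN1 and -0.98 for CLDN7, adjusted p = 0.980 for each), with 0% of all genes called, and 0 with the 4 groups compared alone, where 0.0606% of all genes were called. They also became 0 without 2D timepoint 1 replicate 1 or 2, 2D timepoint 3 replicate 2 or 3, 3D timepoint 1 replicate 3 or 3D timepoint 3 replicate 2, and 1 without 3D timepoint 1 replicate 1 or 2 or 3D timepoint 3 replicate 1, in fits that called 0.0412 to 0.169% of all genes against 0.183% with all 17. With no filter on low counts 5 were called at timepoint 3, where 1.36% of all genes were, and 4 at timepoint 2, where 0.798% were.

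Among the libraries tested, group levels fell into the same order for several members. For CLDN1, CLDN4, OCLN and F11R, both later 3D groups stood lowest and overlapped. Both later 2D groups came next and overlapped, and both timepoint 1 groups stood highest and overlapped. These 3 tiers did not overlap. The 2D timepoint 3 library left out lay within the 3D libraries of that timepoint for CLDN1, CLDN7, OCLN and TJP3. For CLDN4 it lay below all 5 tested libraries of timepoint 3, and for F11R between the cultures. For CLDN1 the tiers were 0.959 ± 0.152 and 0.901 ± 0.152 CPM in 3D at timepoints 2 and 3, 3.33 ± 0.682 and 4.06 ± 1.01 CPM in 2D at timepoints 2 and 3, and 17.9 ± 2.86 (3D) and 21.9 ± 5.05 CPM (2D) at timepoint 1 (SD, n = 3, and n = 2 for 2D timepoint 3). TJP3 was ordered otherwise, with the later 3D groups lowest at 4.72 ± 1.83 and 3.08 ± 1.90 CPM, the later 2D groups highest at 22.8 ± 2.34 and 24.8 ± 6.31 CPM, and the timepoint 1 groups between them, at 11.7 ± 0.869 CPM in 3D cells and 11.6 ± 1.32 CPM for 2D cells. For CLDN12 each neighbour in the order overlapped the next.

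Over the 17 libraries, log2 CPM of CLDN1, CLDN4 and OCLN ran together, with Pearson r of 0.972 for CLDN1 and CLDN4, 0.963 for CLDN1 and OCLN and 0.966 for CLDN4 and OCLN. CLDN7 ran most with TJP3 (r = 0.917), and CLDN12 with none (r at most 0.280, with MARVELD2). Such values describe libraries that share groups and timepoints and carry no test. The gene outside the 9 whose log2 CPM was most alike, among 13564 candidates over the same 17 libraries, was CGN for CLDN4 (r = 0.983), ATP6V1B1 for CLDN7 (0.941), FAM199X for CLDN12 (0.938), EPHB3 for OCLN (0.975), DSG3 for MARVELD2 (0.972), LMO7 for TJP1 (0.992), FGR for TJP3 (0.952) and SUN1 for F11R (0.986). CGN encodes cingulin, itself a tight junction plaque protein, and DSG3 a desmosomal cadherin.

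Other junction genes were counted in the same 3D against 2D comparisons. Of all tested genes, edgeR called 0.785% lower at timepoint 2 and 1.26% at timepoint 3. With the replicate block these shares were 6.86% and 5.3%. Of 20 further claudins 6 passed the filter, and 1 was lower at timepoint 2 and 0 at timepoint 3 (median log2 -0.59 and -0.99). The one called was CLDN23, at 0.108 ± 0.0479 CPM in 3D cells, against 0.379 ± 0.00993 CPM in 2D cells (SD, n = 3 each, log2 -1.75, edgeR adjusted p = 0.0342). Of 10 further junction membrane genes 8 were tested and edgeR called 0 at either timepoint (2 and 3 with an unadjusted p under 0.05), while the block called 3 and 2 lower. Among 26 further plaque and polarity genes 24 were tested, and 1 was lower at timepoint 2 and 2 at timepoint 3. CGN was lower at both, at 0.350 ± 0.151 CPM in 3D cells, against 1.33 ± 0.377 CPM in 2D cells at timepoint 2 (SD, n = 3 each, log2 -1.94, edgeR adjusted p = 0.0368) and at 0.227 ± 0.0980 CPM in 3D (n = 3) and 1.09 ± 0.313 CPM in 2D (n = 2) at timepoint 3 (log2 -2.28, adjusted p = 0.0248). ARHGEF2, a guanine nucleotide exchange factor found at junctions, was lower at timepoint 3 (log2 -0.62, adjusted p = 0.0366). The medians of this list, -0.17 and -0.39, lay nearer to those of all genes than the medians of the 9 did. Since the 9 and the lists were chosen with earlier results of these data known, this is a description and no test. Of 10 adherens junction genes, which hold cells together below the tight junction, edgeR called 0 at either timepoint (3 and 5 with an unadjusted p under 0.05), and the block called 3 and 2 lower. CDH1, E-cadherin, was at 61.5 ± 30.1 CPM in 3D cells, against 135 ± 20.4 CPM in 2D cells at timepoint 2 (SD, n = 3 each, log2 -1.14, edgeR adjusted p = 0.0770, and 0.00274 with the block), and is named after its value was seen. Of the 9 epithelial markers edgeR called 0 at either timepoint (2 and 2 with an unadjusted p under 0.05), and the block called 2 and 1. CD14 of the leukocyte list was lower in 3D at timepoint 2, at 6.93 ± 0.979 CPM in 3D cells, against 15.4 ± 4.39 CPM in 2D cells (SD, n = 3 each, log2 -1.16, edgeR adjusted p = 0.0264), and at timepoint 3, at 6.62 ± 1.05 CPM in 3D (n = 3) and 16.7 ± 3.92 CPM in 2D (n = 2, log2 -1.33, adjusted p = 0.0146). Of the endothelial markers 3 were tested and edgeR called 0 at either timepoint, while the block called 2 lower at timepoint 2, PECAM1 at 0.843 ± 0.265 CPM in 3D cells, against 1.68 ± 0.177 CPM in 2D cells, and KDR at 0.619 ± 0.226 CPM in 3D cells, against 1.77 ± 0.254 CPM in 2D cells (SD, n = 3 each). The part of these markers in the results was not tested.

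Among 15 transcription regulators of epithelial junctions, 14 were tested, and 5 were lower in 3D at timepoint 2 and 3 at timepoint 3, with none higher. Of all tested genes edgeR called 0.785% and 1.26% lower at these timepoints. ELF3, an epithelial ETS factor, was at 1.49 ± 0.701 CPM in 3D cells, against 19.0 ± 4.34 CPM in 2D cells at timepoint 2 (SD, n = 3 each, log2 -3.68, edgeR adjusted p = 0.0105), and the log2 difference at timepoint 3 was -4.19 (adjusted p = 0.00098). GRHL3, a grainyhead factor of barrier epithelia, was at 3.87 ± 1.83 CPM in 3D cells, against 19.8 ± 6.07 CPM in 2D cells at timepoint 2 (SD, n = 3 each, log2 -2.36, edgeR adjusted p = 0.0218), and at -2.30 on the log2 scale at timepoint 3 (0.0198). KLF4, a factor of epithelial differentiation, differed by -1.02 at timepoint 2 and -2.43 at timepoint 3 (adjusted p = 0.0456 and 0.00021). OVOL1, a repressor that favours the epithelial state, differed by -1.77 at timepoint 2 (adjusted p = 0.0414). The fifth call at timepoint 2 was EHF, another epithelial ETS factor, at -1.84 (adjusted p = 0.0493), named after its value was seen. SNAI2, which encodes the repressor Slug, is named after its value was seen. It was at 52.6 ± 12.4 CPM in 3D cells, against 25.3 ± 2.63 CPM in 2D cells at timepoint 2 (SD, n = 3 each, log2 1.06, edgeR adjusted p = 0.0629, and 0.0212 with the block). Its log2 difference at timepoint 3 was 1.06 (adjusted p = 0.111, and 0.0689 with the block). The other repressors of this kind in the list were not called by edgeR at either timepoint. At timepoints 2 and 3 the log2 difference was 0.32 and 0.44 for SNAI1, 0.0092 and 0.15 for ZEB1, -0.069 and 0.49 for ZEB2 and -0.11 and -0.86 for TWIST1, of which the block called the last (adjusted p = 0.0167, lower in 3D).

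**Figure D4:**
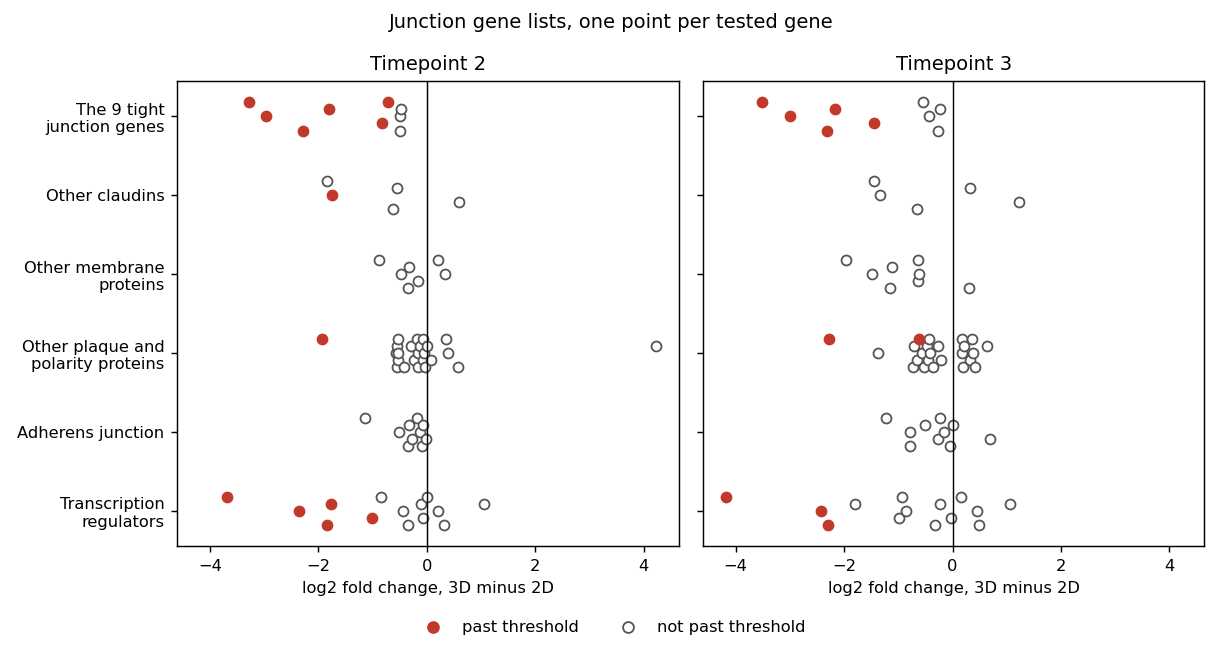
Log2 fold change, 3D minus 2D, of each tested gene in 6 lists at timepoints 2 and 3; filled red points passed the edgeR threshold, and genes at 0 in every library of a group are not drawn. All called genes lie below 0. No adherens junction gene is called, but all 10 lie below 0 at timepoint 2 and 8 at timepoint 3. The 9 tight junction genes and the lists were chosen with earlier results of these data known.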

How the data were processed

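RNA-seq of 18 MCF10A libraries was used. Per the submitters' processing notes the authors used STAR 2.7.1a, HOMER, edgeR and limma with hg38; which annotation release, strand setting and filters they used is not stated there. The authors deposited a table of raw counts per gene, whose sums exceed the header totals, so depth behind a value is not known and no counting interval is given. They also deposited log2 CPM for 13677 genes and, per timepoint, log2 fold changes, p-values and adjusted p-values, per the file headers.

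From the counts, filterByExpr kept 18592 genes in 17 libraries, TMM scaled them, and edgeR 4.0.16 (R 4.3.3) fitted group means by quasi-likelihood, with Benjamini-Hochberg adjustment over all genes and a threshold of 0.05. The standard error is the log2 fold change over the square root of F. The fit was tested on simulated data. Groups and replicate numbers came from sample titles. Each number carries one date in the sample descriptions, shared by its 6 libraries, so numbers pair libraries: at one timepoint, deviations of same-numbered libraries correlated across genes at 0.186 to 0.514 in 8 of 8 pairs. The main fit held no term for this pairing, so its spread includes differences between the numbers. The spread estimated over all genes (common dispersion) was 0.0686 in the main fit and 0.0363 with the replicate block. Alternatives were DESeq2 1.42.0, RLE, header totals, no filter, a stricter filter, all 18 libraries, the groups alone, the replicate block and leaving out each library. All 9 members were named in every comparison, up to 4 called genes with the smallest p of each other list, and for each member the most alike gene of mean count at least 50. Other named genes of these lists, such as EHF, SNAI2 and CDH1, were added outside this rule. The gene most alike to CLDN1 is not reported here. The members and lists were chosen with earlier results of these data known. Promoter sequences are from RefSeq.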

Additional observations from a re-analysis of the deposited data

Results flagged for a closer look

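For 3 tight junction genes the change from timepoint 1 to timepoint 3 differed between 3D and 2D by edgeR's interaction test. The interaction on the log2 scale was -3.01 for TJP3 (edgeR adjusted p = 0.0443), whose change was -1.92 in 3D and 1.09 in 2D. It was -1.88 for CLDN1 (0.0320), with changes of -4.30 in 3D and -2.43 in 2D, and -1.34 for CLDN7 (0.0267), with changes of -1.16 in 3D and 0.17 in 2D. All 3 calls were lost with the 2D timepoint 3 library that was otherwise left out. Of 17 fits that each left out 1 library, the call was lost in 14 for TJP3, 9 for CLDN1 and 7 for CLDN7.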

How the results depend on the processing

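Counts of tight junction genes called at timepoint 2 between 3D and 2D (6) became 1 with all 18 libraries, and at timepoint 3 (5) became 0. DESeq2 called 1 between timepoints 3 and 2 in 3D, in place of 0. For the interaction at timepoint 2, with 0 called, DESeq2 gave 3, no filter 4 and the replicate block 5. For the interaction at timepoint 3, with 3 called, no filter gave 5, all 18 libraries 0 and the groups alone 0. The cause was not tested. Leaving out each library in turn gave 0 to 6 calls at timepoint 2, 3 to 5 at timepoint 3 and 0 to 0 at timepoint 1; in 3D 6 to 8, 8 to 8 and 0 to 0 for timepoint 2 against 1, 3 against 1 and 3 against 2; in 2D 3 to 6, 2 to 5 and 0 to 0; and 0 to 0, 0 to 3 and 0 to 0 for the interactions. A group left with 1 library is assumed to vary like the others.

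No called value changed sign under any setting. Among values not called, TJP3 at timepoint 1 was -0.0088 with the block and the change of CLDN7 in 2D at timepoint 3 was -0.18 with all 18 libraries. Between timepoints 3 and 2 signs turned under some setting for 6 members in 3D, 4 in 2D and 3 in the interaction, and that of CLDN12 turned in the interaction at timepoint 3. Without 1 library CLDN12 ran from -0.49 to 0.021 and -0.42 to 0.092 for timepoints 2 and 3 against 1 in 3D, and from -0.049 to 0.49 and -0.26 to 0.29 in 2D. Without 1 library the differences at timepoint 1 ran from -0.084 to 0.066 for TJP3, -0.95 to 0.23 for CLDN4, -0.26 to 0.017 for CLDN7, -0.33 to 0.23 for CLDN12 and -0.18 to 0.048 for TJP1. In 2D, CLDN4 lost its timepoint 2 call with all 18 libraries (adjusted p = 0.0504), where MARVELD2 was called at timepoint 3 (0.0354), and F11R lost its calls with header totals, no filter and the groups alone at both timepoints, and with RLE at timepoint 3. The replicate block changed no call of a tight junction gene beyond those named in the report. Scaling by header totals moved the median of all genes at timepoint 2 to -0.23, from -0.03, that of timepoint 2 against 1 in 3D to -0.11 and that of its interaction to -0.25; all 9 kept their sign under every setting in the first and last of these, and all but CLDN12 in the other. Low counts of OCLN and CLDN4 in later 3D libraries, a 2D group of 2 and counts above the header totals limit precision.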
